A study of Homo sapiens with 22 samples.

Results

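The genes described here were 9 members of the interleukin-6 (IL6) family and its signalling route, chosen by name: the ligands IL6, IL11 and LIF, the receptor chains IL6R, IL6ST, LIFR and OSMR, the transcription factor STAT3 and its feedback inhibitor SOCS3. They are 9 of the 20668 gene symbols for which RNA abundance was deposited. The choice was made with earlier results of these data known. RNA-seq was performed in MDA-MB-231 cells, a human triple-negative breast cancer (TNBC) cell line, to compare 2 ligands of the glucocorticoid receptor (GR): dexamethasone (Dex), a synthetic glucocorticoid, and Compound A (CpdA), a selective GR modulator. The 10 samples fell into 5 groups of 2 replicates: vehicle, 100 nM Dex for 2 h, 100 nM Dex for 4 h, 10 µM CpdA for 2 h and 10 µM CpdA for 4 h. Cells of every group, vehicle included, were first kept for 3 days without phenol red and in serum stripped with charcoal (5%), which depletes steroids. All results therefore concern 1 cell line, and the p-values below measure the spread between these samples only. The study calls the replicates biological, without saying how they were grown, and the labels give no separate cultures. No label dates the vehicle samples, but their file headers name 2 h (replicate 1) and 4 h (replicate 2). Time and replicate therefore cannot be told apart within vehicle, and each vehicle sample is shown separately for the 9 members. Any vehicle mean or SD joins both samples, so it mixes the named times with the replicates.

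The values are RPKM, the reads on a gene scaled to the length of its transcript and to the mapped reads of the sample, so levels of different genes can be compared per length. Tests were made with limma on log2(RPKM + 0.1) for genes that reached 0.5 RPKM in 2 or more samples, 12713 in all and 8 of the 9 members. IL6R stayed under that minimum in every sample. A gene is said to rise or fall where its Benjamini-Hochberg adjusted p, over all genes tested, was under 0.05, and fold changes are on the log2(RPKM + 0.1) scale. The mesenchymal and breast markers of the line were present in every sample (VIM 1267 to 1464 RPKM, CD44 120 to 182, KRT8 244 to 326), and the oestrogen and progesterone receptor genes were at or near 0 (ESR1 and PGR, at most 0.00484). ERBB2, the HER2 gene, was not near 0 but at 15.9 to 21.6 RPKM, so these RNA values do not by themselves show triple-negative status. The markers of leukocytes, fibroblasts and endothelium (9 genes measured) summed to between 5.30 and 6.45 RPKM per sample. CD3E, PDGFRA, DCN and PTPRC did not exceed 0.063 RPKM, while LUM (2.57 to 3.00) and CD14 (2.17 to 2.89) were detected. Read totals are unknown, but the RPKM step of 1 read gives the depth relative to vehicle replicate 1: it was 1.01 in the other vehicle sample and 1.06 to 1.21 in the treated samples, so vehicle was the shallowest group.

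Cytokines of the IL6 family signal through receptor complexes that share the chain gp130, the product of IL6ST. IL6 and IL11 reach gp130 through their own binding chains (IL6R and IL11RA), LIF pairs gp130 with LIFR, and oncostatin M pairs it with OSMR or LIFR. The complex activates Janus kinases, which phosphorylate STAT3. SOCS3 is a STAT3 target whose product blocks the receptor complex and closes the loop. IL6 is a classical gene repressed by glucocorticoids in inflamed tissue, and TNBC cells can secrete it. RNA from bulk cultures was measured, so fewer expressing cells and less RNA per cell cannot be told apart.

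The sequences just upstream of the transcription start are shown for IL6 and IL11, the ligands with the largest changes, and for LIFR, a receptor gene whose RNA rose under Dex. They are 250 bases each, from RefSeq on GRCh38.p14, on the gene's strand and ending at the base before the start. IL6 lies at chr7:22726950-22727199 on the plus strand, IL11 at chr19:55370464-55370713 on the minus strand, and LIFR, the first of 3 annotated starts, at chr5:38595406-38595655 on the minus strand. Capitals mark matches to fixed motif letters.
IL6: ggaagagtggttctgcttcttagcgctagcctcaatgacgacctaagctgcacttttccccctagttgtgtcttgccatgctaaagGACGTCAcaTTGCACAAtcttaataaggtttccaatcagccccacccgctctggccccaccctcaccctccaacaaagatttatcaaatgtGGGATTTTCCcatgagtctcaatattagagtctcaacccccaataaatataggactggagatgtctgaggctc
IL11: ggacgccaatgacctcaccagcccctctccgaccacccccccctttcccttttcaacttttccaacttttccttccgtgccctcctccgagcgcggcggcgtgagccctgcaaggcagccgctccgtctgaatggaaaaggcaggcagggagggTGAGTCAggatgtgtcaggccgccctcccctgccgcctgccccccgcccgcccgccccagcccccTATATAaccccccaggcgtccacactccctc
LIFR: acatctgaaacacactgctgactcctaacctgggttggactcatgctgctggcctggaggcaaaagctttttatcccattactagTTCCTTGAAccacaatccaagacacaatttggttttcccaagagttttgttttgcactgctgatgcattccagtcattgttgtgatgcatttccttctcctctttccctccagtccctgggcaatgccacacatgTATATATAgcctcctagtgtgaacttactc

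In the IL6 window the capitals mark, in order, a cyclic AMP response motif (TGACGTC, here on the other strand) at -164 to -158, a C/EBP motif (TTGCNNAA) at -155 to -148 and an NF-kB motif (GGG and TTTCC, 2 bases apart) at -73 to -64, counted from the start. The IL11 window held an AP-1 motif (TGANTCA) at -96 to -90 and a TATA motif (TATANA) at -31 to -26. The LIFR window held a STAT motif (TTCNNNGAA) at -165 to -157 and 2 overlapping TATA motifs that end at -23. Of the windows at the other LIFR starts, the second held a C/EBP, a STAT and a TATA motif and the third held none of those searched. Which start these cells use was not measured in the data used here. Over 35116 promoter windows of the same length, 1.73% held the NF-kB motif, 3.12% the cyclic AMP response motif, 9.05% the C/EBP motif, 6.57% the AP-1 motif, 6.57% the STAT motif and 13.003% the TATA motif, the last searched on the gene's strand and the others on both. The full palindromic letters of a glucocorticoid response element, AGAACA and TGTTCT with 3 bases between them, were in none of the 11 windows of the 8 matched members and in 1 of the 35116. These are matches of letters, and binding was not measured in the data used here.

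IL6 RNA was nearly lost under Dex and rose under CpdA at 2 h. In vehicle it was 28.0 RPKM in replicate 1 and 11.2 in replicate 2. Under Dex it was 1.29 and 1.40 at 2 h and 1.82 and 1.86 at 4 h. All 4 Dex samples thus lay far below both vehicle samples. Under CpdA it was 59.5 and 56.5 at 2 h, above both vehicle samples, and 22.0 and 19.6 at 4 h, between them.

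The vehicle samples of IL6 differed 2.50-fold, so the size of each change depended on which was used. Against vehicle replicate 1 the Dex 2 h mean was 20.8-fold lower, and against replicate 2 it was 8.35-fold lower. At Dex 4 h these ratios were 15.2-fold and 6.09-fold. Against both samples, IL6 fell by 3.63 on the log2 scale (SE 0.317) at Dex 2 h, the lowest value of all genes tested, and by 3.20 (SE 0.317) at Dex 4 h, with adjusted p = 7.05e-05 and 7.80e-05 in limma.

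At CpdA 2 h, IL6 rose by a log2 fold change of 1.70 (SE 0.317, adjusted p = 0.0158). The CpdA 2 h mean was 2.07-fold above vehicle replicate 1 and 5.16-fold above replicate 2. The adjusted p exceeded 0.05 without either CpdA 2 h replicate (0.114 without replicate 1 and 0.0903 without replicate 2), with the log2 fold change at 1.66 and 1.74. At CpdA 4 h the log2 fold change of 0.22 (95% interval -0.49 to 0.94, adjusted p = 0.674) did not pass, and here the vehicle sample decided the sign. The mean was 1.85-fold that of vehicle replicate 2, named for 4 h in its header, and 0.741 times that of replicate 1, named for 2 h. With vehicle replicate 1 left out the log2 fold change was 0.88 (adjusted p = 0.000763), and with replicate 2 left out it was -0.43 (adjusted p = 0.0116).

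IL11, a cytokine that shares gp130 with IL6 and promotes bone metastasis in breast cancer models, moved in opposite directions under the 2 ligands at both times. It was 10.2 and 7.80 RPKM in vehicle, and under Dex 1.94 and 1.98 at 2 h and 1.06 and 1.09 at 4 h. Under CpdA it was 31.3 and 31.4 at 2 h and 30.6 and 31.8 at 4 h. No treated group overlapped vehicle, and the CpdA 2 h samples lay between the CpdA 4 h samples. IL11 fell by 2.13 on the log2 scale at Dex 2 h (SE 0.104, adjusted p = 1.48e-06) and by 2.95 at Dex 4 h (adjusted p = 1.06e-07). It rose by 1.80 at CpdA 2 h (adjusted p = 2.27e-05) and by 1.79 at CpdA 4 h (adjusted p = 1.46e-05), that is 3.48-fold and 3.46-fold.

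LIF, leukaemia inhibitory factor, was the most abundant of the 3 ligands in vehicle and fell under Dex to a smaller extent. It was 43.3 RPKM in vehicle replicate 1 and 28.7 in replicate 2, 17.3 and 19.8 after 2 h of Dex, and 12.7 in both Dex 4 h samples. All Dex samples were below both vehicle samples. Under CpdA it was 43.3 and 43.5 at 2 h, at the level of the higher vehicle sample, and 33.6 and 33.1 at 4 h, between the vehicle samples. LIF fell by 0.93 on the log2 scale at Dex 2 h (SE 0.151, adjusted p = 0.00356) and by 1.47 at Dex 4 h (adjusted p = 9.90e-05). The log2 fold changes under CpdA, 0.30 at 2 h (adjusted p = 0.314) and -0.08 at 4 h (adjusted p = 0.753), did not pass. They were 0.59 at 2 h without vehicle replicate 1 (adjusted p = 0.0033) and -0.38 at 4 h without vehicle replicate 2 (adjusted p = 0.0126).

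**Figure D1:**
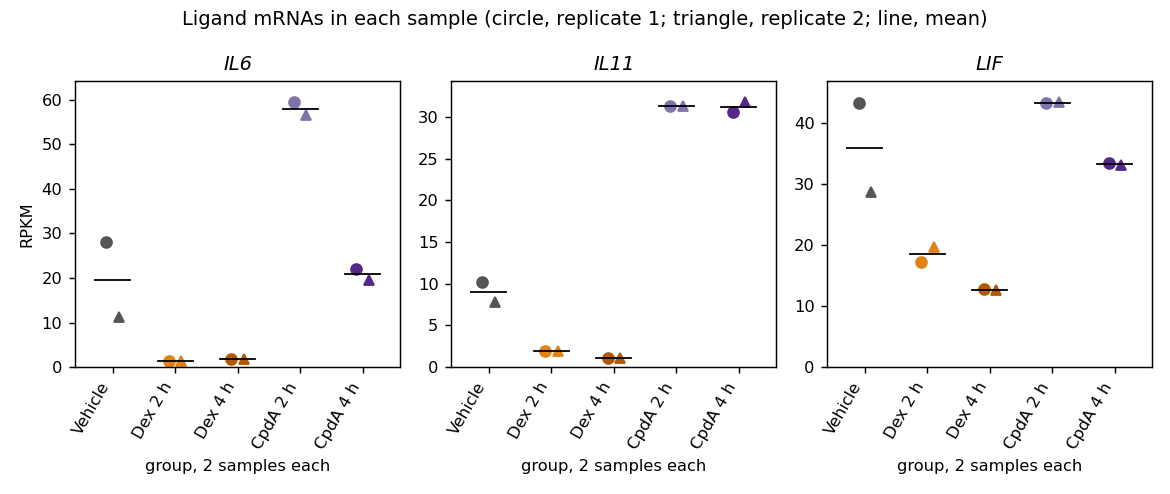
RPKM of IL6, IL11 and LIF (vertical axes, each from 0) in the 10 samples of the 5 groups (horizontal axis); circles are replicate 1, triangles replicate 2 and lines the group means. The Dex samples sit lowest in each panel, the CpdA samples of IL11 near 31 RPKM stand above vehicle, and the vehicle samples of IL6 spread from 11.2 to 28.0.

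The counting is not stated to use strand. On GRCh37 with GENCODE v44, IL6 (chr7:22765503-22771621, plus strand) is overlapped by the antisense gene IL6-AS1, and LIF (chr22:30636442-30642748, minus strand) by LIF-AS1 and LIF-AS2. None of these 3 symbols had a value, and their reads cannot be told apart from those of IL6 and LIF. IL11 (chr19:55875750-55881831, minus strand) has no such overlap. LIFR (chr5:38474770-38608456, minus strand), OSMR (chr5:38845960-38945698, plus strand) and IL6ST (chr5:55230923-55290850, minus strand) lie on chromosome 5. IL6R lies at chr1:154377669-154441926 (plus strand), STAT3 at chr17:40465342-40540558 (minus strand) and SOCS3 at chr17:76352859-76356158 (minus strand).

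Among the receptor chains, LIFR rose under Dex. This chain binds LIF directly and joins gp130. It was 5.13 and 4.73 RPKM in vehicle, and under Dex 12.99 and 11.8 at 2 h and 12.5 and 15.2 at 4 h. Under CpdA all 4 samples lay between 4.11 and 4.14. Every Dex sample exceeded both vehicle samples, and every CpdA sample was below both. The rise was 2.48-fold at Dex 2 h (log2 1.31, SE 0.0917, adjusted p = 1.66e-05) and 2.77-fold at Dex 4 h (log2 1.47, adjusted p = 3.46e-06). Under CpdA the log2 fold changes were -0.25 at 2 h (adjusted p = 0.150) and -0.25 at 4 h (adjusted p = 0.0914). They passed when either Dex 4 h replicate was left out of the fit, with adjusted p = 0.0353 and 0.0360 at 2 h and 0.0192 and 0.0196 at 4 h, since the Dex 4 h replicates contribute to the shared estimate of spread.

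IL6ST, the shared chain gp130, was abundant in every sample. It was 40.8 and 42.9 RPKM in vehicle. Under Dex it was 50.8 and 51.9 at 2 h and 42.4 and 57.1 at 4 h, and under CpdA 36.1 and 36.95 at 2 h and 41.3 and 42.7 at 4 h. The Dex 2 h samples were above vehicle and the CpdA 2 h samples below it, while both 4 h groups overlapped it. None of the 4 comparisons with vehicle passed (log2 0.29, 0.23, -0.20 and 0.00 in that order, adjusted p = 0.148, 0.153, 0.354 and 0.989). At Dex 2 h it passed without either Dex 4 h replicate (adjusted p = 0.00114 and 0.00117), and at Dex 4 h it rose by 0.45 without Dex 4 h replicate 1 (adjusted p = 0.000214). At CpdA 2 h it passed as lower without either Dex 4 h replicate (adjusted p = 0.0145 and 0.0147). The processed pseudogene IL6STP1 on chromosome 17 had no value of its own, and reads shared with it are uncertain.

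OSMR, the oncostatin M receptor chain, was 47.3 and 42.4 RPKM in vehicle and fell at Dex 4 h to 31.8 and 36.3, below both vehicle samples. The gene fell by 0.40 on the log2 scale (SE 0.0686, adjusted p = 0.00245), a 1.32-fold decrease. At Dex 2 h it was 43.3 and 43.5, within the range of vehicle (log2 -0.04, 95% interval -0.20 to 0.11). Under CpdA it was between 45.1 and 48.6 (log2 0.10 at 2 h and 0.03 at 4 h, adjusted p = 0.457 and 0.794). OSM, which encodes the ligand of this receptor, did not exceed 0.0279 RPKM.

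IL6R, the chain that binds IL6 itself, was barely detected. It was 0.0862 and 0.0704 RPKM in vehicle. Under Dex it was 0.144 and 0.157 at 2 h and 0.166 and 0.249 at 4 h, and under CpdA 0.183 and 0.194 at 2 h and 0.226 and 0.258 at 4 h. All 8 treated samples were above both vehicle samples, which were also the shallowest. With no filter on low values, IL6R passed at 4 h of Dex with a log2 fold change of 0.77 (adjusted p = 0.0115), where 16.3% of all 20668 genes did. It also passed at 4 h of CpdA with 0.94 (adjusted p = 0.00825), where 11.0% did. It did not pass at 2 h (0.49 with adjusted p = 0.122 under Dex, where 5.74% of genes passed, and 0.70 with adjusted p = 0.0605 under CpdA, where 2.56% did). The part of depth in this was not tested.

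**Figure D2:**
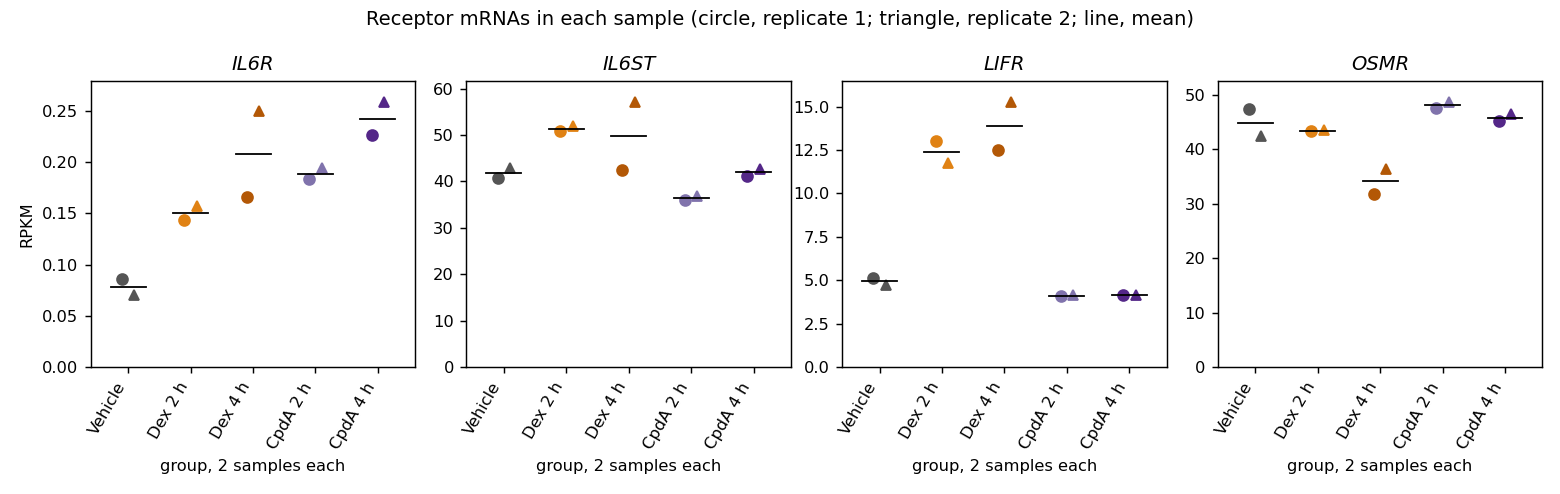
RPKM of the receptor chains IL6R, IL6ST, LIFR and OSMR (vertical axes, each from 0) in the 10 samples of the 5 groups (horizontal axis); circles are replicate 1, triangles replicate 2 and lines the group means. LIFR is between 11.8 and 15.2 in the Dex samples and at most 5.13 elsewhere, and IL6R stays under 0.26 throughout.

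The replicates at Dex 4 h differed for all 4 receptor chains and STAT3, with replicate 2 the higher in each. The log2 difference between the Dex 4 h replicates rose with transcript length across genes (Spearman 0.626 over 10986 genes, which are not independent replicates), more than in the other groups (-0.0833 to 0.363). The longest coding transcript of LIFR has 10553 bases and that of IL6ST 9027 bases, lengths above 96.4% and 93.8% of those genes. The ligands and SOCS3 are shorter (1527 bases for IL6 to 3871 for LIF). The part of transcript length in the receptor values was not tested.

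STAT3 RNA, which encodes the factor these receptors activate, was between 26.5 and 33.7 RPKM in all 10 samples. It was 31.4 and 28.7 in vehicle. Under Dex it was 29.8 and 30.6 at 2 h and 26.5 and 29.7 at 4 h, and under CpdA 32.5 and 33.7 at 2 h and 31.0 and 32.7 at 4 h. The CpdA 2 h samples were above both vehicle samples and the other treated groups overlapped them. No comparison with vehicle passed, and the 95% intervals of the log2 fold changes were -0.13 to 0.16 and -0.24 to 0.05 under Dex at 2 h and 4 h, and -0.01 to 0.29 and -0.06 to 0.23 under CpdA. The activated, phosphorylated form of the protein is not seen in RNA.

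SOCS3 was lower in every treated group than in vehicle. It was 6.64 and 9.39 RPKM in vehicle, replicate 2 being the higher here, unlike for IL6 and LIF. Under Dex it was 2.52 and 2.42 at 2 h and 4.57 and 4.19 at 4 h. Under CpdA it was 4.41 and 4.02 at 2 h and 5.89 and 5.84 at 4 h. No treated sample reached the lower vehicle sample, and within each ligand the 4 h samples lay above the 2 h samples. SOCS3 fell by 1.64 on the log2 scale at Dex 2 h (SE 0.135, adjusted p = 4.87e-05), by 0.84 at Dex 4 h (adjusted p = 0.00158) and by 0.89 at CpdA 2 h (adjusted p = 0.00586). The CpdA 2 h value was -0.83 (adjusted p = 0.0631) without CpdA 2 h replicate 2. At CpdA 4 h the log2 fold change was -0.42 (adjusted p = 0.0554), and it passed without vehicle replicate 1 (-0.67, adjusted p = 0.00236) or Dex 4 h replicate 1 (-0.42, adjusted p = 0.0497).

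**Figure D3:**
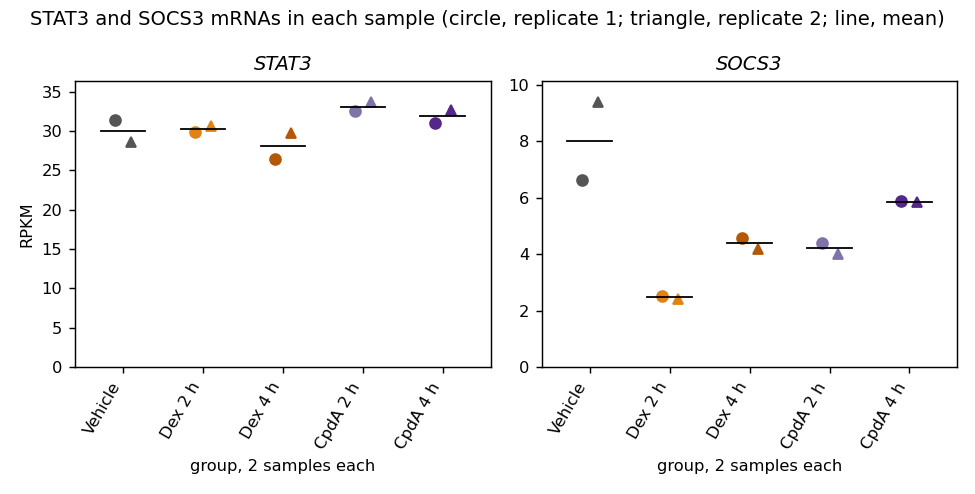
RPKM of STAT3 and SOCS3 (vertical axes, each from 0) in the 10 samples of the 5 groups (horizontal axis); circles are replicate 1, triangles replicate 2 and lines the group means. STAT3 spans 26.5 to 33.7, and SOCS3 is highest in vehicle and lowest at Dex 2 h.

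Counted over the 8 members tested, Dex at 2 h raised 1 and lowered 4, where 10.3% of all genes tested passed (4.49% up and 5.82% down). At Dex 4 h, 1 rose and 5 fell, against 27.4% of all genes (9.26% up and 18.2% down). CpdA at 2 h raised 2, IL6 and IL11, and lowered SOCS3, against 6.18% of all genes (1.89% up and 4.29% down). At CpdA 4 h IL11 alone of the 8 passed, within 1 gene of what the 20.5% share of all genes would give (6.76% up and 13.8% down). The median log2 fold change of the 8 was -0.49 and -0.62 under Dex at 2 h and 4 h, and 0.12 and 0.02 under CpdA, beside medians over all genes tested of -0.02, -0.05, -0.02 and -0.04. The 4 comparisons share the vehicle samples. The members were named for their roles, but with earlier results of these data known, and a list of this size gives no test of its own.

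**Figure D4:**
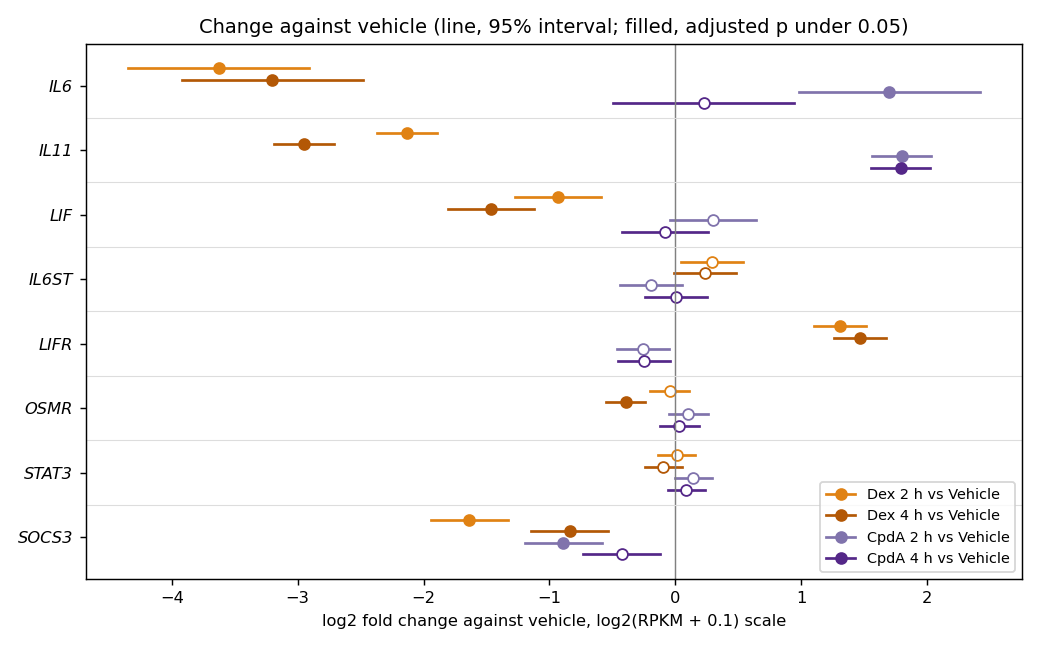
Log2 fold changes against vehicle, on the log2(RPKM + 0.1) scale (horizontal axis), of the 8 members tested (vertical axis), with 95% intervals as lines; filled points have an adjusted p under 0.05 in limma. IL6 at Dex 2 h lies furthest to the left at -3.63, IL11 is at 1.80 and 1.79 under CpdA, and STAT3 lies near 0 in all 4 comparisons.

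The order of levels per length in vehicle was OSMR (44.8 RPKM), IL6ST (41.9), LIF (36.0), STAT3 (30.0), IL6 (19.6), IL11 (9.02), SOCS3 (8.02), LIFR (4.93) and IL6R (0.0783). OSMR and IL6ST overlapped between replicates. LIF, whose vehicle samples were 1.51-fold apart, overlapped OSMR, IL6ST and STAT3. IL11 and SOCS3 also overlapped. At Dex 4 h LIFR stood above LIF (13.9 ± 1.93 and 12.7 ± 0.0445 RPKM, SD, n = 2), with overlapping samples, and IL11 and IL6 were the lowest members after IL6R (1.07 and 1.84 RPKM). At CpdA 2 h IL6 was the most abundant of the 9 genes (58.0 ± 2.09 RPKM).

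The ligands were also compared with each other at the same times. These differences hold no vehicle value, but the vehicle samples enter the filter and the shared estimate of spread. At 2 h, 6 of the 8 members tested differed between Dex and CpdA, beside 13.7% of all genes (7.53% higher and 6.18% lower under Dex). IL6 was 40.2-fold lower under Dex than under CpdA (log2 -5.33, SE 0.317, adjusted p = 4.52e-06), the lowest value of all genes tested. IL11 was 15.2-fold lower (log2 -3.93, adjusted p = 3.75e-08), LIF 2.34-fold lower (adjusted p = 0.000537) and SOCS3 1.68-fold lower (adjusted p = 0.00551). LIFR was 2.96-fold higher (adjusted p = 4.15e-06) and IL6ST 1.40-fold higher (adjusted p = 0.0160). IL6ST did not pass when any of the 4 samples compared was left out (adjusted p = 0.0757 to 0.101), and SOCS3 did not without CpdA 2 h replicate 1 (log2 -0.68, adjusted p = 0.0539). OSMR and STAT3 did not pass, with log2 differences of -0.15 (95% interval -0.30 to 0.01) and -0.13 (95% interval -0.28 to 0.02). With only the 4 samples compared in the fit both passed (adjusted p = 0.0199 and 0.0469), so that all 8 members did, where 2544 of 12430 genes passed in place of 1743 of 12713.

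At 4 h, 6 of the 8 again differed, beside 33.4% of all genes (15.4% higher and 18.0% lower under Dex). IL11 was 26.7-fold lower under Dex than under CpdA (log2 -4.74, SE 0.104, adjusted p = 7.21e-09), and only 1 gene of those tested had a lower value. IL6 was 10.7-fold lower (adjusted p = 4.04e-05) and LIF 2.61-fold lower (adjusted p = 0.000114). OSMR was 1.34-fold lower (adjusted p = 0.00123), and SOCS3 was 1.33-fold lower (adjusted p = 0.0428). LIFR was 3.29-fold higher (adjusted p = 1.12e-06). The SOCS3 difference did not pass in 13 of 19 alternative fits, among them those without CpdA 4 h replicate 1 (log2 -0.41, adjusted p = 0.148) or Dex 4 h replicate 2 (log2 -0.35, adjusted p = 0.129). IL6ST did not pass (log2 0.23, adjusted p = 0.141), though it did at 0.44 without Dex 4 h replicate 1 (adjusted p = 0.000177). STAT3 was at -0.18 (adjusted p = 0.0558). It passed at -0.27 without Dex 4 h replicate 2 (adjusted p = 0.00962), and at -0.18 without vehicle replicate 1 or 2 (adjusted p = 0.0458 and 0.0456).

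Between the 2 times of Dex, 13.6% of all genes (4.55% up and 9.02% down) and 4 of the 8 members passed. From 2 h to 4 h IL11 fell by 0.82 on the log2 scale (adjusted p = 0.00137), LIF by 0.54 (adjusted p = 0.0475) and OSMR by 0.35 (adjusted p = 0.0113), and SOCS3 rose by 0.80 (adjusted p = 0.00566). IL6 was at 0.43 (adjusted p = 0.408). It passed without either vehicle replicate (adjusted p = 0.00589 and 0.00559), since the spread of the vehicle samples enters the shared estimate. LIF did not pass when any of the 8 samples other than vehicle was left out (adjusted p = 0.0759 to 0.228), nor OSMR without Dex 2 h replicate 1 or 2 (0.0706 and 0.0709). Without Dex 4 h replicate 1, LIFR passed at 0.30 (adjusted p = 0.0439), and without Dex 4 h replicate 2 IL6ST passed at -0.27 (adjusted p = 0.00500). Between the times of CpdA, where 12.4% of all genes passed (5.21% up and 7.20% down), IL6 alone of the members fell, by 1.48 (adjusted p = 0.0187). The call was lost without any of the 4 CpdA samples in turn (adjusted p = 0.0947 to 0.117). LIF (log2 -0.38, adjusted p = 0.138), SOCS3 (log2 0.47, adjusted p = 0.0543) and IL6ST (log2 0.20, adjusted p = 0.271) did not pass. LIF did without either vehicle replicate (0.00661 and 0.00652), IL6ST without either Dex 4 h replicate (0.00948 and 0.00966), and SOCS3 without any of these 4 (0.00493 to 0.0468).

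The vehicle samples named for 2 h and 4 h in the headers differed in the same direction as each of these 5 changes. The vehicle sample named for 4 h was lower for IL6 (2.50-fold), LIF (1.51-fold), IL11 (1.31-fold) and OSMR (1.12-fold), and higher for SOCS3 (1.41-fold). Set against the vehicle sample named for the same time, IL6 under CpdA was 2.07-fold higher at 2 h and 1.85-fold higher at 4 h. LIF under Dex was 2.34-fold lower at 2 h and 2.26-fold lower at 4 h, and SOCS3 was 2.69-fold and 2.14-fold lower. IL11 under Dex was 5.22-fold lower at 2 h and 7.28-fold lower at 4 h, and OSMR 1.09-fold and 1.24-fold lower. With 1 vehicle sample per named time these ratios have no test.

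Other genes of the route were grouped by role, in lists chosen with earlier results of these data known. The count of each list is read beside the share of all genes that passed against vehicle. That share was 10.3% at Dex 2 h, 27.4% at Dex 4 h, 6.18% at CpdA 2 h and 20.5% at CpdA 4 h. Of 8 other ligand genes of the family, 4 passed the filter, and CLCF1, cardiotrophin-like cytokine factor 1, was the only 1 that changed against vehicle. CLCF1 was 29.5 and 21.9 RPKM in vehicle, 13.04 and 15.1 after 2 h of Dex, and 14.7 and 12.8 after 4 h, while all 4 CpdA samples lay between 26.4 and 31.9. All Dex samples were thus below both vehicle samples, and the gene fell by 0.85 and 0.89 on the log2 scale (adjusted p = 0.00268 and 0.000947). Under CpdA no other ligand passed in limma, with an unadjusted p under 0.05 for 0 of the 4 at 2 h and 1 at 4 h. Of 3 other receptor genes tested, IL27RA, the IL27 receptor chain, fell at CpdA 2 h (log2 -0.65, adjusted p = 0.0497). IL11RA, the binding chain for IL11, was between 1.84 and 2.43 RPKM in all samples.

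Of 8 Janus kinase and STAT genes tested, 1 fell with Dex at 2 h, and 2 rose and 1 fell at 4 h, while with CpdA 1 fell at 2 h and 2 fell at 4 h. Each of these 4 counts is within 1 gene of what the shares of all genes (10.3%, 27.4%, 6.18% and 20.5%) would give. JAK2, a kinase that gp130 uses, rose at Dex 4 h from 1.07 ± 0.00289 to 1.88 ± 0.277 RPKM (SD, n = 2; log2 0.76, adjusted p = 0.00136). Of 14 inhibitors of the route, 4 rose and 3 fell with Dex at 2 h and 3 rose and 4 fell at 4 h, while with CpdA 1 rose and 3 fell at 2 h and 1 rose and 2 fell at 4 h. That is 7, 7, 4 and 3 of the 14, beside 10.3%, 27.4%, 6.18% and 20.5% of all genes, and at CpdA 4 h the share was near that of all genes. PTPN1, a tyrosine phosphatase that acts on JAK2, rose from 68.1 ± 4.43 to 139.9 ± 2.98 RPKM at Dex 2 h and 159.5 ± 2.86 at Dex 4 h (log2 1.04 and 1.23). SOCS1, which like SOCS3 inhibits Janus kinases directly, was 3.77 and 7.61 RPKM in vehicle, 11.6 and 10.8 at Dex 2 h, and 2.59 and 2.15 at CpdA 2 h. It thus rose at Dex 2 h (log2 1.05, adjusted p = 0.0296), the opposite direction to SOCS3, and fell at CpdA 2 h (log2 -1.15, adjusted p = 0.0305). CISH fell at both Dex times (log2 -0.93 and -0.92) from 0.478 RPKM, and PIAS3, a STAT3 inhibitor, rose at both (log2 0.23 and 0.64) and fell at CpdA 4 h (-0.28). Among 7 adaptor and protease genes, 1 rose with Dex at 2 h and 2 rose at 4 h, beside 10.3% and 27.4% of all genes. Under CpdA none passed in limma, beside 6.18% and 20.5% (an unadjusted p under 0.05 for 3 of the 7 at each time). At both Dex times and at CpdA 2 h these counts are within 1 gene of what the shares would give. SOS1, which links the receptors to Ras, rose at both Dex times (log2 0.59 and 0.66).

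Known STAT3 target genes moved in both directions. Of 22 tested, 9 rose and 6 fell with Dex at 2 h and 11 rose and 6 fell at 4 h, while with CpdA 7 rose and 2 fell at 2 h and 6 rose and 5 fell at 4 h. That is 15, 17, 9 and 11 of the 22, beside 10.3%, 27.4%, 6.18% and 20.5% of all genes. Their median log2 fold change was 0.17, 0.25, 0.15 and -0.07 in that order, beside -0.02, -0.05, -0.02 and -0.04 over all genes tested. CEBPB, a transcription factor of the acute phase response, rose from 26.2 ± 0.963 RPKM in vehicle to 233 ± 17.3 at Dex 2 h (log2 3.14, adjusted p = 6.12e-09), and BATF, an AP-1 family factor, rose from 0.928 ± 0.0379 to 9.55 ± 0.351 at Dex 4 h (log2 3.23). BCL3, an NF-kB cofactor, was 18.7 and 9.30 in vehicle and between 3.71 and 4.35 in the 4 Dex samples (log2 -1.68 and -1.77). VEGFA fell at both Dex times, by 1.32 on the log2 scale at 4 h. IRF1 fell in all 4 treated groups (log2 -0.93 to -1.33). FOS rose under CpdA, from 1.54 ± 0.0907 RPKM to 10.9 ± 0.210 at 2 h and 8.32 ± 0.159 at 4 h (log2 2.75 and 2.36). It also passed as higher at Dex 2 h, at 1.85 and 1.86 RPKM beside 1.60 and 1.47 in vehicle.

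Genes that control the stability of cytokine RNAs and factors known to act at the IL6 promoter were the last groups. Of 10 stability genes, 3 rose and 1 fell with Dex at 2 h and 4 rose and 1 fell at 4 h, while with CpdA 2 rose and 1 fell at 2 h and 1 rose and 1 fell at 4 h. These are 4, 5, 3 and 2 of the 10, beside 10.3%, 27.4%, 6.18% and 20.5% of all genes, and at CpdA 4 h the share was that of all genes to within 1 gene. ZFP36, whose product tristetraprolin speeds the decay of cytokine RNAs, was 6.19 and 8.48 RPKM in vehicle and between 47.5 and 55.3 in the 4 Dex samples (log2 2.80 at both times). It also rose under CpdA (log2 0.95 and 0.70), while ZFP36L2 rose under Dex (log2 2.00 and 2.16) and fell under CpdA (log2 -0.45 and -0.38). ZC3H12A, the RNase regnase-1 that degrades IL6 RNA, rose at Dex 4 h (log2 0.67, adjusted p = 0.00715). Of 9 promoter factors, 3 rose and 3 fell with Dex at 2 h and 2 rose and 4 fell at 4 h, while with CpdA 3 rose and 1 fell at 2 h and 3 rose and 2 fell at 4 h. These are 6, 6, 4 and 5 of the 9, beside the same shares of all genes (10.3%, 27.4%, 6.18% and 20.5%). The AP-1 genes FOSL1 and JUN fell under Dex (log2 -1.43 and -1.96 for FOSL1, -1.63 and -1.57 for JUN). JUN also fell at CpdA 4 h (51.8 and 51.2 RPKM, beside 70.4 and 59.4 in vehicle). The NF-kB gene NFKB1 fell in all 4 treated groups, CpdA 2 h included. The C/EBP gene CEBPD rose under both ligands (log2 2.08 and 1.74 under Dex, 1.10 and 0.49 under CpdA). CEBPB, CEBPD and FOS belong to both the STAT3 target list and the promoter factor list.

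**Figure D5:**
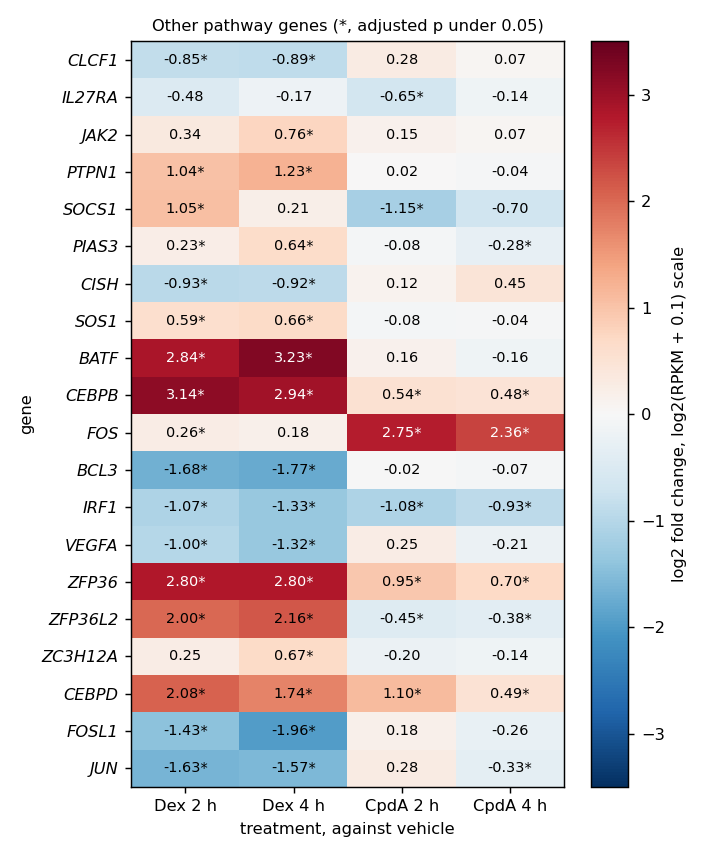
Log2 fold changes against vehicle, on the log2(RPKM + 0.1) scale, of the other pathway genes named by the rule (vertical axis) in the 4 treated groups (horizontal axis); colour gives the value and an asterisk an adjusted p under 0.05 in limma. BATF, CEBPB, ZFP36 and ZFP36L2 are among the strongest rises under Dex, and FOS stands out under CpdA at 2.75 and 2.36.

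The genes whose levels followed each ligand most closely over the 10 samples were found by Pearson's r of log2(RPKM + 0.1) among 12705 genes, as a description. For IL6 they were IER3 (r = 0.991), CCRN4L (0.989) and IER5 (0.986). For IL11 they were GRPEL2 (0.992), SLC2A1 (0.990), the glucose transporter GLUT1, and UPP1 (0.989). For LIF they were TUFT1 (0.992), FOSL1 (0.991) and VEGFA (0.991). The 10 samples are 5 pairs of replicates that share their treatment, so each r rests largely on differences between the 5 groups.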

How the data were processed

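RNA-seq libraries (Illumina TruSeq RNA kit, single-end reads) were made from 10 MDA-MB-231 samples. The authors aligned the reads with TopHat2 2.0.13 and used Partek Genomics Suite 6.6 (default settings) to estimate abundance, and they deposited RPKM for 20668 gene symbols per sample. The submitters' processing notes name hg19. The strand used in counting, the annotation and the read totals are not given in the sources used here. Another 12 samples of the series, of ChIP, were not used here.

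Groups were taken from the labels. The deposited RPKM values were transformed to log2(RPKM + 0.1), without further normalization, for the 12713 genes at 0.5 or more in at least 2 samples. The test was that of limma 3.58.1 (R 4.3.3, eBayes with trend) in 1 model of all 5 groups, with Benjamini-Hochberg adjustment over all genes kept and a threshold of 0.05. It was also run on simulated data in which each gene had the same spread in all 5 groups. That run does not cover genes whose spread differed between groups, such as IL6. RPKM cannot take a count test, the pseudocount understates changes of low genes, and with unknown depth no counting interval was given. RPKM of 1 sample also depends on the share of its reads that abundant genes take.

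The 9 members and the gene lists were chosen with earlier results of these data known. Other genes were named by a rule: the 3 genes closest to each ligand by Pearson's r, and from each list up to 3 genes per direction with the largest change among those past 0.05 and a fold change over 1.5 against vehicle. OSM, IL11RA and NFKB1 were named after their values were seen. Alternatives were pseudocounts of 1 and 0.01, no filter, a filter of 1 RPKM in every sample, quantile normalization, median scaling, eBayes without trend, only the 4 samples compared, the replicate number as a block, and each sample left out in turn. Coordinates are from GENCODE v44 on GRCh37. Upstream sequences are from RefSeq on GRCh38.p14, which matched 8 of the 9 members (not LIF), and no coordinates were converted. Python 3.11.15, pandas 2.3.3, numpy 2.4.6, scipy 1.17.1 and matplotlib 3.10.9 were used.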

Additional observations from a re-analysis of the deposited data

Results flagged for a closer look

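The level under 1 ligand differed between its time points, by the limma test of the 4 h against the 2 h samples, for 5 results. The difference tested holds no vehicle value of either time, so it compares levels and not the effect of a ligand at each time. Vehicle samples enter only the filter and the shared estimate of spread. Under Dex the log2 difference was -0.82 for IL11 (adjusted p = 0.00137), -0.54 for LIF (adjusted p = 0.0475), -0.35 for OSMR (adjusted p = 0.0113) and 0.80 for SOCS3 (adjusted p = 0.00566). Under CpdA it was -1.48 for IL6 (adjusted p = 0.0187). The vehicle samples named in the headers for 4 h and 2 h differed in the same direction for all 5. Set against the vehicle sample named for the same time, IL6 under CpdA was 2.07-fold higher at 2 h and 1.85-fold higher at 4 h, and LIF under Dex was 2.34-fold and 2.26-fold lower, ratios that have no test. Groups of 2 samples were too small to look for outlying samples.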

How the results depend on the processing

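Over 19 alternatives, the calls of IL6, IL11, LIF, LIFR and SOCS3 under Dex at both times, of OSMR at Dex 4 h and of IL11 at both CpdA times kept their direction and stayed past the threshold. The log2 fold change of IL6 at Dex 2 h ranged from -4.28 to -2.97, and that of LIFR from 1.17 to 1.38. IL6 at CpdA 4 h turned to -0.43 (adjusted p = 0.0116) without vehicle replicate 2 and was 0.88 without vehicle replicate 1. The number of members passing at CpdA 4 h against vehicle was 2 with no filter on low values and 2 with at least 1 RPKM in every sample, in place of 1. Between the CpdA times it was 0 with no filter in limma (2 at an unadjusted p under 0.05), 2 with the stricter filter, and 4 with only the 4 samples compared. With 1 sample left out at a time, the number ranged from 5 to 6 at Dex 2 h, 6 to 7 at Dex 4 h, 1 to 5 at CpdA 2 h and 1 to 3 at CpdA 4 h. It ranged from 4 to 6 for Dex against CpdA at 2 h, 5 to 7 at 4 h, 2 to 5 between the Dex times and 0 to 3 between the CpdA times. A lone sample is then assumed to vary like the other groups. The calls over all genes moved too: at CpdA 2 h against vehicle, 786 genes passed with all samples, 216 without CpdA 2 h replicate 1 (2 members), 226 without replicate 2 (1 member), and 1450 and 1446 without Dex 4 h replicate 1 or 2 (5 members each). Between the CpdA times, 1577 passed with all samples, 262 to 302 without 1 CpdA sample, and 2502 and 2498 without Dex 4 h replicate 1 or 2 (3 members each). With only the 4 samples compared, the 8 members tested all passed for Dex against CpdA at 2 h, in place of 6. LIF between the Dex times did not pass in 14 of 19 alternatives (adjusted p up to 0.228), OSMR in 3 of 19 (up to 0.0709), and IL6 between the CpdA times in 5 of 19. IL6 at CpdA 2 h did not pass in 4 of 19, including no filter (adjusted p = 0.0737) and only the 4 samples compared (0.0678).

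Deviations of same-numbered replicates were at most weakly correlated (-0.0568 to 0.198 over 10 pairs of groups, mean 0.0544, 3 over 0.1). The numbers were not taken as pairs. With a replicate block in the model, the number of members passing was 5, 6, 3 and 1 against vehicle at Dex 2 h, Dex 4 h, CpdA 2 h and CpdA 4 h, 6 and 5 for Dex against CpdA at 2 h and 4 h, 3 between the Dex times and 1 between the CpdA times. The block ended the calls of SOCS3 for Dex against CpdA at 4 h (adjusted p = 0.0552) and of LIF between the Dex times (adjusted p = 0.0546). It changed no other call of a member. Over all genes it raised the number passing in every comparison, for example from 1311 to 1454 at Dex 2 h and from 1577 to 1879 between the CpdA times.

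With 2 samples per group and no read totals, small changes of STAT3, OSMR and IL6ST, and any of IL6R, are limited by the spread between replicates and by depth.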
